A study of Mus musculus with 9 samples.

Results

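Collagen genes were followed in cells sorted from the somites between the limb buds of mouse embryos at embryonic day 9.5. A gene was taken as a collagen gene when its symbol has the form Col, number, a, number (Col1a1, for example). There were 42 such genes among the 18193 genes on the arrays with a probe set of their own, and 82 of the 45037 probe sets tested belonged to them. By the kind of molecule they encode, 11 were fibrillar, 9 were FACIT (fibril-associated collagens with interrupted helices), 8 were collagens of basement membranes and 14 were placed together as other, namely the beaded filament, network, anchoring and membrane-spanning collagens and Col26a1. Each gene was read from the probe set with the highest mean log2 value over the 9 arrays, and 27 of the 42 had more than 1 to choose from.

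The samples fell into 3 groups of 3 arrays. The group called GFP/+ held GFP-positive cells of embryos in which 1 Pax3 allele carries GFP, so that cells with an active Pax3 locus fluoresce. The group called PAX3-FKHR/GFP held GFP-positive cells of embryos that also carry the human oncogenic fusion PAX3-FKHR in the other Pax3 allele, as a gain of function for Pax3 with no intact mouse Pax3 allele. The GFP- group held the non-fluorescent cells of the dissected tissue. Its labels give no genotype, and the methods of the study name GFP/+ embryos in some places and wild-type embryos in another. According to these methods the fusion allele is conditional and was switched on by PGK-Cre, a transgene that acts in all tissues, each sample pooled tissue from many embryos of 1 genotype, and the GFP-positive gate could retain neural crest cells and other cells in which GFP persists. The treatment text in the labels speaks of forelimb buds, whereas titles and source give interlimb somites, and the samples were taken as somites.

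Collagens are proteins of the extracellular matrix whose chains wind around each other into a rigid helix. The fibrillar types assemble into the fibrils of skin, bone, tendon and cartilage, the FACIT types sit on the surface of those fibrils, and type IV forms the sheet of every basement membrane. In the somite, a basement membrane surrounds the dermomyotome, the dorsal epithelium from which muscle progenitors come, whereas the ventral part, the sclerotome, gives rise to the cartilage of the vertebrae and ribs and begins to transcribe Col2a1 and Col9a1. Some molecules are built from products of different genes, such as type I from Col1a1 and Col1a2, so that the genes of 1 molecule can be followed side by side.

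Over all probe sets, the correlation was 0.9962 to 0.9979 within groups and 0.987 to 0.9961 between them, with array medians of 4.63 to 4.68 (log2). Pax3, the targeted locus, averaged 9.20 in GFP/+, 8.29 in PAX3-FKHR/GFP and 4.50 in GFP- cells on its brightest probe set, and all 3 of its probe sets ran in this order. The brightest was lower with the fusion (log2 difference -0.91 ± 0.08, SE, n = 3 per group, limma adjusted p = 0.000215), and which transcripts of the targeted alleles it reads was not established. Of the 10 dermomyotome markers measured, 9 were higher in GFP/+ than in GFP- cells. Levels below are deposited log2 RMA values (an array summary of the probes of each probe set), differences are in log2 units ± standard error with 3 arrays in each group, and adjusted p-values come from limma with Benjamini-Hochberg adjustment over all probe sets tested. To be called, a gene needed an adjusted p under 0.05 together with a difference of 0.5 log2 units (1.41-fold) or more in either direction. Since nothing in the labels says that the 3 samples of a group came from separate litters, these p-values measure the spread between these samples. In bulk samples such as these, fewer cells of a type and less RNA per cell cannot be told apart.

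Of the 42 collagen genes, 11 were called in at least 1 of the 3 comparisons, Col13a1 was the 1 called in all of them, and 31 were called in none. In 12 genes the mean of every group lay below the median of all values (4.66), namely Col4a3, Col4a4, Col6a4, Col6a5, Col8a1, Col8a2, Col9a2, Col10a1, Col11a2, Col17a1, Col19a1 and Col24a1, and 0 of these 12 were called in any comparison by limma or by the local pooled error test, while 2, 2 and 4 of them had an unadjusted p under 0.05. At such levels the array background compresses a difference between groups. The plot of all differences shows where the called genes stand among the rest.

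**Figure D1:**
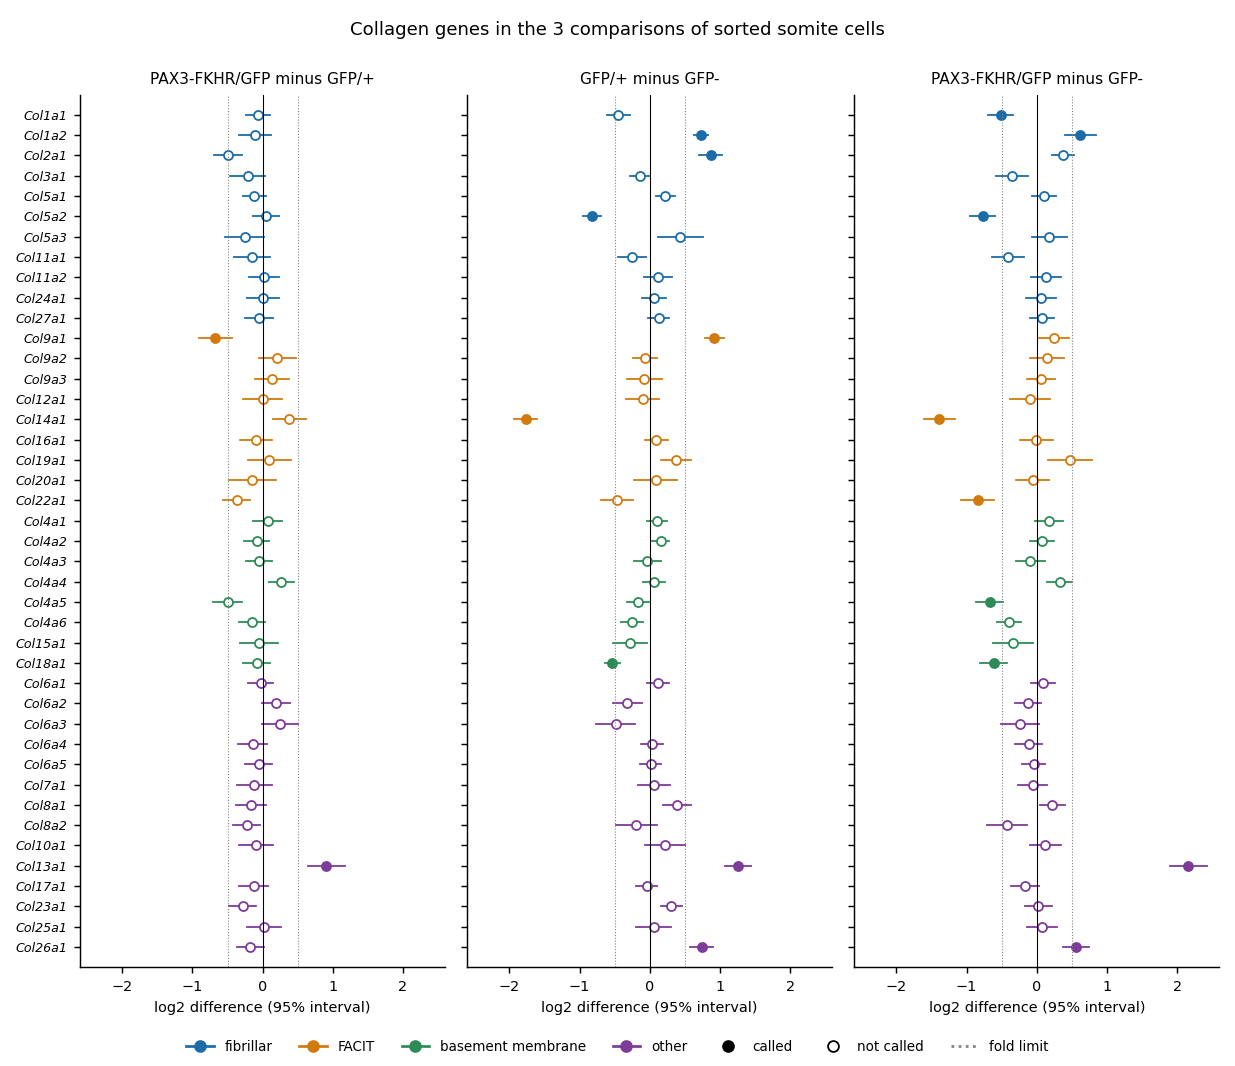
Log2 difference between group means for each of 42 collagen genes (rows, coloured by class) in the 3 comparisons (panels), with 95% intervals from limma. Filled points were called and open points were not, and dotted lines mark the limit of 0.5. In the first panel 2 points are filled, against 8 in the middle panel and 9 in the right panel.

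The first comparison asked which transcripts differ when PAX3-FKHR is produced in Pax3-positive cells. Here 1 collagen gene rose and 1 fell: Col13a1, a collagen that spans the cell membrane and is known from adhesion sites and the neuromuscular junction, was higher in the presence of the fusion, and Col9a1, a FACIT chain known from the surface of cartilage fibrils, was lower. That is 2.38% of the 42 in each direction, beside 1.31% of the 18193 genes called higher and 0.715% called lower. The median difference was -0.08 over the collagen genes and -0.0015 over all genes. For 34 of the 42, the 95% interval of the difference lay wholly within 0.5 log2 units of 0, and it did so for 9 of the 11 fibrillar genes.

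Col13a1, on chromosome 10 (GRCm38.p6, 61838234 to 61979206), was read by a single probe set. Its log2 values were 7.71, 7.9985 and 8.21 in the PAX3-FKHR/GFP samples, 7.03, 7.17 and 7.0021 in the GFP/+ samples, and 5.74, 5.95 and 5.76 in the GFP- samples. The 3 groups were stacked without overlap, the PAX3-FKHR/GFP samples highest and the most spread. The difference of PAX3-FKHR/GFP from GFP/+ was 0.91 ± 0.12 (1.87-fold, 95% interval 1.56 to 2.25, adjusted p = 0.00241). That of GFP/+ from GFP- was 1.25 ± 0.08 (2.38-fold, adjusted p = 5.54e-06), and the whole span from GFP- to PAX3-FKHR/GFP was 2.16 ± 0.12 (4.47-fold, adjusted p = 3.18e-07). The first 2 of these differences share the GFP/+ samples and are not independent of each other. In no other collagen gene were all 3 differences called.

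Col9a1 lies on chromosome 1 (24177589 to 24252738). It was highest in GFP/+ cells, at 9.86, 9.95 and 9.76, against 8.98, 9.20 and 9.36 in PAX3-FKHR/GFP and 8.95, 8.90 and 8.95 in GFP- cells. The GFP/+ samples stood above all others, and the PAX3-FKHR/GFP samples lay between them and the GFP- samples, the lowest of them close to GFP-. With the fusion Col9a1 fell by 0.67 ± 0.10 (1.59-fold lower, adjusted p = 0.00727), and between GFP/+ and GFP- cells it was higher by 0.92 ± 0.06 (1.89-fold, adjusted p = 4.89e-06), so that it was the 1 collagen gene called in opposite directions in these comparisons, which share the GFP/+ samples. A further probe set of Col9a1 gave -0.41 with the fusion (adjusted p = 0.208) and 0.71 between GFP/+ and GFP- cells (adjusted p = 0.00104). Leaving out a single sample ended the call in 3 of 6 cases: the adjusted p was 0.0725 without PAX3-FKHR/GFP replicate 2, 0.0504 without GFP/+ replicate 1 and 0.0869 without GFP/+ replicate 2.

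The stretches upstream of the annotated starts are shown for Col13a1 and Col9a1, the genes called with the fusion, and for Col1a2, the type I chain that was higher in GFP/+ than in GFP- cells, because Pax3 acts by binding DNA. Col2a1 and Col26a1, which were called higher in the same comparison, and Col14a1 and Col5a2, which were called lower, had no entry in the promoter table. Col18a1, also called lower, had 2 entries, which are not printed. The stretches are RefSeq sequences of build GRCm38.p6, given 5′ to 3′ on the strand of the gene and stopped where the annotated gene begins, at chr10:61979207-61979358 (minus strand), chr1:24177360-24177588 (plus strand) and chr6:4505368-4505617 (plus strand). Capitals mark the matches to 7 short motifs.
Col13a1: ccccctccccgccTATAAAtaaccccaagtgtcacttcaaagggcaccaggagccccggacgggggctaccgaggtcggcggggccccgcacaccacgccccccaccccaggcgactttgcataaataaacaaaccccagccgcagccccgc
Col9a1: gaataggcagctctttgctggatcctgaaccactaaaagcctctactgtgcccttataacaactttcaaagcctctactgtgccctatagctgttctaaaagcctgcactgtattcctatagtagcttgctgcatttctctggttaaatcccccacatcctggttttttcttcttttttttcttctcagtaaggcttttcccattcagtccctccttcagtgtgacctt
Col1a2: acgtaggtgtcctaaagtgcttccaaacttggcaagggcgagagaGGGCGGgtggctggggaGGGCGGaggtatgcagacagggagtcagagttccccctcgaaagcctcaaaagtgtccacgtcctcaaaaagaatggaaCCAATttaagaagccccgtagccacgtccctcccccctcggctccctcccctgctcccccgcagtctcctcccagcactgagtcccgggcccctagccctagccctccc

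The motifs were searched on both strands in the 250 bases before the start given by each promoter entry. For Col13a1 and Col9a1 this start lies inside the annotated gene, whose bases are not printed, so their printed stretches end at -99 and -22. The motif matches do not overlap each other in these 3 stretches. Positions count back from the start of the entry, with -1 as the last base before it. GC boxes (GGGCGG) of Col1a2 began at -205 and -188 and its CCAAT box (CCAAT) at -109, and a TATA box (TATAAA) of Col13a1 began at -237. The Col9a1 entry shown held no match, and a further entry of Col9a1, not printed, held a CCAAT box at -18. The 33 collagen genes with an entry had 36 entries. Of these, 21 (58.3%) held a GC box against 32.7% of all 32851 entries, 13 (36.1%) a CCAAT box against 33.8%, and 5 (13.9%) a TATA box against 12.4%. The core letters of a PAX paired-domain site (GTCACGC) stood in 0 of the 36 and in 1.78% of all entries, and the homeodomain palindrome TAATTA in 2 against 4.84%. A forkhead motif (TGTTTAC) and a SOX motif (AACAAT) were each held by 1 of the 36, against 3.17% and 9.42% of all entries. Such matches are a description of letters only, and a missing match says nothing of binding elsewhere.

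A further 2 collagen genes passed the test with the fusion but fell just short of the fold limit, and both were lower. Col2a1, which encodes the main fibrillar collagen of cartilage, stood at 8.87, 8.90 and 8.97 in PAX3-FKHR/GFP, 9.29, 9.37 and 9.57 in GFP/+ and 8.54 in each of the GFP- samples. Its groups did not overlap, and the difference with the fusion was -0.4955 ± 0.09 (adjusted p = 0.0177). Col4a5, a type IV chain known from the basement membrane of the kidney glomerulus, stood at 7.12, 7.37 and 7.35 in PAX3-FKHR/GFP, 7.87, 7.80 and 7.67 in GFP/+ and 7.98, 7.88 and 7.9999 in GFP- cells. Its 3 groups were stacked without overlap, PAX3-FKHR/GFP lowest, with a difference of -0.4999 ± 0.09 between PAX3-FKHR/GFP and GFP/+ (adjusted p = 0.0228) and of -0.17 ± 0.07 between GFP/+ and GFP- cells (adjusted p = 0.212). A further probe set of Col4a5 gave -0.17 (adjusted p = 0.722), and Col2a1 had no further probe set.

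Markers of the sclerotome, a known source of Col2a1 and Col9a1 transcripts, moved in part with these genes. The linear values of the 7 sclerotome markers summed to 1629 to 1926 in PAX3-FKHR/GFP, 2132 to 2221 in GFP/+ and 460.5 to 478.8 in GFP- cells. Foxc2 was the brightest of the 7 in each group, at mean log2 values of 9.53, 10.09 and 7.57, and weighed most in these sums. The paper describes Foxc2 as expressed together with Pax3 in the dermomyotome, so it does not mark the sclerotome alone. In PAX3-FKHR/GFP against GFP/+ cells Pax1 and Foxc2 were called lower and Uncx higher, and the other 4 were not called. The 8 cartilage markers summed to 455.8 to 475.3, 515.4 to 533.6 and 1035 to 1097 in the same order, of which 0 were called with the fusion by limma or the local pooled error test (2 had an unadjusted p under 0.05). Between GFP/+ and GFP- cells 1 of these 8 was called higher, Sox5 (0.87), and 1 lower, Hapln1 (-2.34), a link protein of cartilage matrix also known outside cartilage, with a median difference of 0.01 over the 8. Hapln1 made up 65.5% to 68% of the cartilage sum in GFP- and 26.5% to 28.6% in GFP/+ cells. The 8 muscle markers, all called lower with the fusion, summed to 1294 to 1505, 3097 to 3421 and 1421 to 1532. Actc1 was the brightest of these 8 in each group, at mean log2 values of 9.53, 10.39 and 9.94, and weighed most in these sums. In PAX3-FKHR/GFP against GFP- cells 4 of the 8 were called higher (Myog, Myh3, Tnnc2 and Acta1) and 1 lower (Tnni1). The part of these cell types in the collagen values was not tested.

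**Figure D2:**
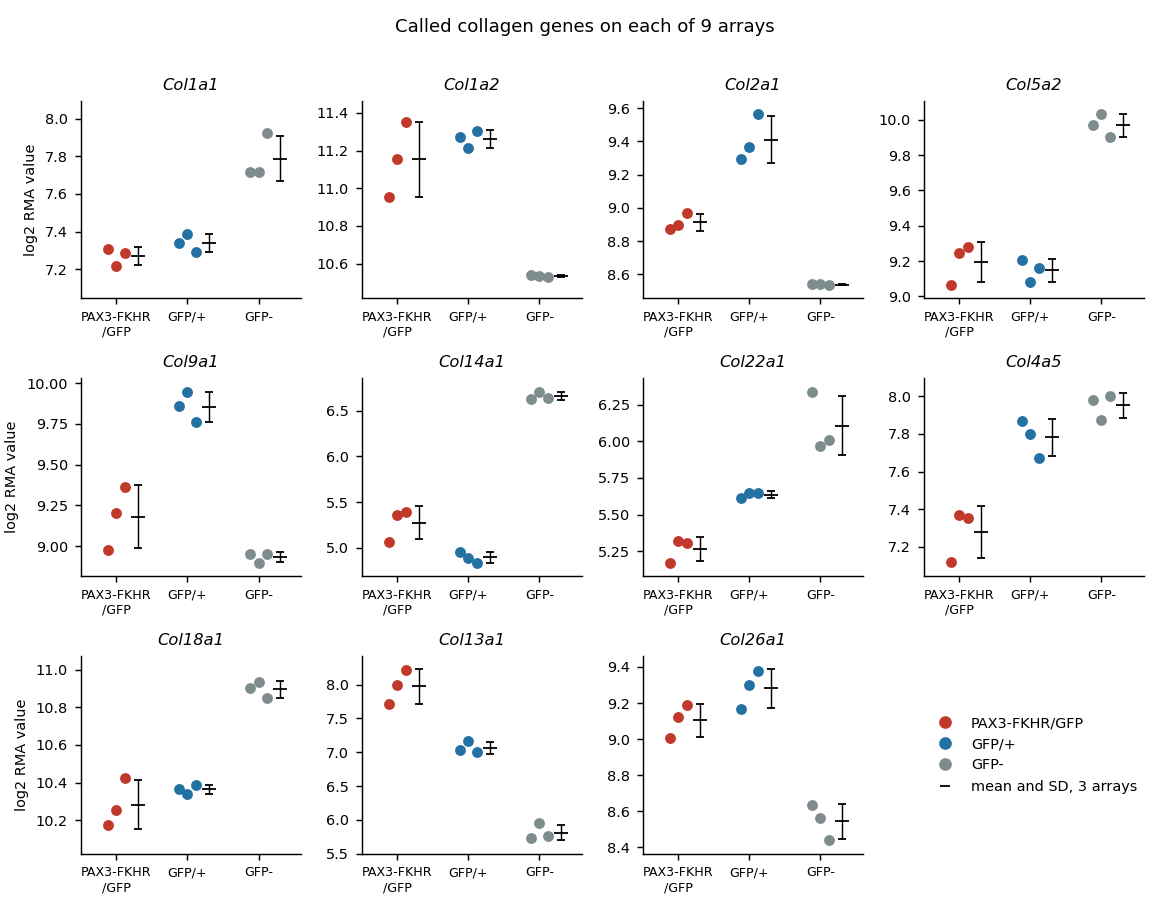
Log2 RMA values of the 11 called collagen genes on each of 9 arrays (points, by group), with the mean and SD of 3 arrays beside them. Each panel has its own vertical axis, since levels of different probe sets are not compared. Col13a1 runs from 5.74 in the lowest GFP- sample to 8.21 in the highest PAX3-FKHR/GFP sample, and Col9a1 and Col2a1 are highest in GFP/+.

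The second comparison set Pax3-positive cells of GFP/+ embryos against the GFP- cells of the same region. There 5 collagen genes were higher in GFP/+ cells (Col13a1, Col9a1, Col2a1, Col26a1 and Col1a2) and 3 were lower (Col14a1, Col5a2 and Col18a1). These are 11.9% and 7.14% of the 42, beside 1.92% of all 18193 genes called higher and 5.05% called lower. Among the genes that were not dim in every group, 8 of 30 collagen genes (26.7%) and 9.81% of all 12016 were called in either direction. The median difference was 0.06 over the collagen genes and 0.0078 over all genes. The called genes came from every class, with 3 of 11 fibrillar, 2 of 9 FACIT, 1 of 8 basement membrane and 2 of 14 other genes.

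Among the fibrillar genes, Col1a2, the second chain of type I collagen, was at 11.27, 11.21 and 11.31 in GFP/+ and at 10.54, 10.53 and 10.53 in GFP- cells, and the PAX3-FKHR/GFP samples spread more widely, from 10.95 to 11.35. No GFP- sample reached the GFP-positive ones. The difference of GFP/+ from GFP- was 0.73 ± 0.05 (1.66-fold, adjusted p = 3.77e-06), and both further probe sets of Col1a2 were called the same way, at 0.91 and 0.50. The last of these lay below the median of all values, at 3.92 in GFP/+ and 3.42 in GFP- cells. Col2a1 was higher in GFP/+ than in GFP- cells by 0.87 ± 0.07 (1.83-fold, adjusted p = 2.94e-05).

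Col5a2 encodes a chain of type V collagen, which helps to start fibrils and sets their width. Its log2 values were 9.21, 9.08 and 9.16 in GFP/+, 9.06, 9.25 and 9.28 in PAX3-FKHR/GFP and 9.97, 10.03 and 9.90 in GFP- cells. The GFP-positive groups overlapped and the GFP- samples stood above both. In GFP/+ cells Col5a2 was lower than in GFP- cells by 0.82 on the log2 scale (a difference of -0.82 ± 0.06, 1.76-fold, adjusted p = 9.44e-06), and a further probe set gave the same difference of -0.82.

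Of the FACIT genes, Col14a1 differed most in this comparison. It encodes a collagen that sits on type I fibrils in embryonic connective tissue. Its values were 4.95, 4.89 and 4.84 in GFP/+ and 6.63, 6.71 and 6.64 in GFP- cells, and 5.06, 5.36 and 5.40 in PAX3-FKHR/GFP. The GFP- samples were far above the rest, and GFP/+ samples were close to the median of all values. The difference of GFP/+ from GFP- was -1.76 ± 0.07 (3.40-fold lower, adjusted p = 1.75e-07), and that of PAX3-FKHR/GFP from GFP/+ was 0.38 ± 0.11 with no overlap but an adjusted p of 0.16. Of the 2 further probe sets of Col14a1, 1 was called lower (-0.60) and the other gave 0.04 (adjusted p = 0.872). Both lay below the median of all values in each group, the uncalled one at 3.25 in GFP/+ and 3.21 in GFP- cells.

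Col18a1, a basement membrane collagen whose C-terminal fragment is endostatin, was at 10.37, 10.34 and 10.39 in GFP/+, 10.17, 10.25 and 10.42 in PAX3-FKHR/GFP and 10.90, 10.94 and 10.85 in GFP- cells. Its GFP- samples were again above both GFP-positive groups. It was lower in GFP/+ than in GFP- cells by 0.53 (a difference of -0.53 ± 0.05, adjusted p = 4.86e-05), and a further probe set gave -0.78. Col26a1, a secreted collagen first known from the developing testis and ovary, was at 9.17, 9.30 and 9.38 in GFP/+ and 8.63, 8.56 and 8.44 in GFP- cells. This was a difference of 0.74 ± 0.07 (adjusted p = 0.000111), whereas a further probe set of Col26a1 gave 0.27 (adjusted p = 0.0981). That further probe set averaged 3.54 in GFP/+ and 3.27 in GFP- cells, below the median of all values, where background compresses a difference.

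In 6 more collagen genes the adjusted p of GFP/+ against GFP- cells was under 0.05 with a difference below the fold limit. Col1a1, Col6a3 and Col22a1 gave -0.45, -0.49 and -0.47, and Col8a1, Col19a1 and Col23a1 gave 0.39, 0.37 and 0.31. Col6a3 and Col22a1 passed the limit as well without GFP- replicate 3, at -0.59 and -0.52, which brought the number of lower collagen genes from 3 to 5.

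Genes whose products assemble into 1 molecule did not always run together between GFP/+ and GFP- cells. Col1a1, the other type I chain, stood at 7.34, 7.39 and 7.29 in GFP/+, 7.31, 7.22 and 7.29 in PAX3-FKHR/GFP and 7.72, 7.72 and 7.93 in GFP- cells, so that its GFP- samples were the highest where those of Col1a2 were the lowest. The log2 difference of Col1a2 exceeded that of Col1a1 by 1.18 ± 0.09. The further probe set of Col1a1 gave -0.40 (adjusted p = 0.0816). In type V, Col5a1 gave 0.22 ± 0.06 (adjusted p = 0.0547) where Col5a2 was lower, a gap of 1.04 ± 0.09. Col3a1, which neighbours Col5a2 on chromosome 1 with 24624 bases and no protein-coding gene between them, gave -0.14 ± 0.06 (adjusted p = 0.27), and its gap to Col5a2 was 0.68 ± 0.11. In type IX, Col9a2 and Col9a3 gave -0.07 and -0.08 where Col9a1 was higher (0.92). With the fusion Col9a2 and Col9a3 gave 0.21 and 0.13, not called, where Col9a1 was lower (-0.67). Col9a2 lay below the median of all values in each group and Col9a3 close to it, where background compresses a difference.

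The main type IV chains did run side by side in this comparison. Col4a1 and Col4a2, which abut head to head on chromosome 8, gave 0.10 ± 0.06 and 0.16 ± 0.05 between GFP/+ and GFP- cells (adjusted p = 0.415 and 0.121), a gap of -0.05 ± 0.04. Their 95% intervals, -0.04 to 0.24 and 0.04 to 0.27, stayed within the fold limit. With the fusion their gap was 0.15 ± 0.04, and between PAX3-FKHR/GFP and GFP- cells it was 0.10 ± 0.03. For Col4a5 and Col4a6, neighbours on chromosome X, the gap was 0.08 ± 0.08 between GFP/+ and GFP- cells and -0.35 ± 0.10 with the fusion. In type VI, Col6a1 gave 0.11 and Col6a2 -0.32, neither of which was called. A further probe set of Col6a2 did not show this lower level, at means of 6.91 in GFP/+ and 6.86 in GFP- cells. Col6a3 gave -0.49 (adjusted p = 0.0347), below the fold limit. These pairs were picked out after their values were seen, so the gaps carry no test.

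**Figure D3:**
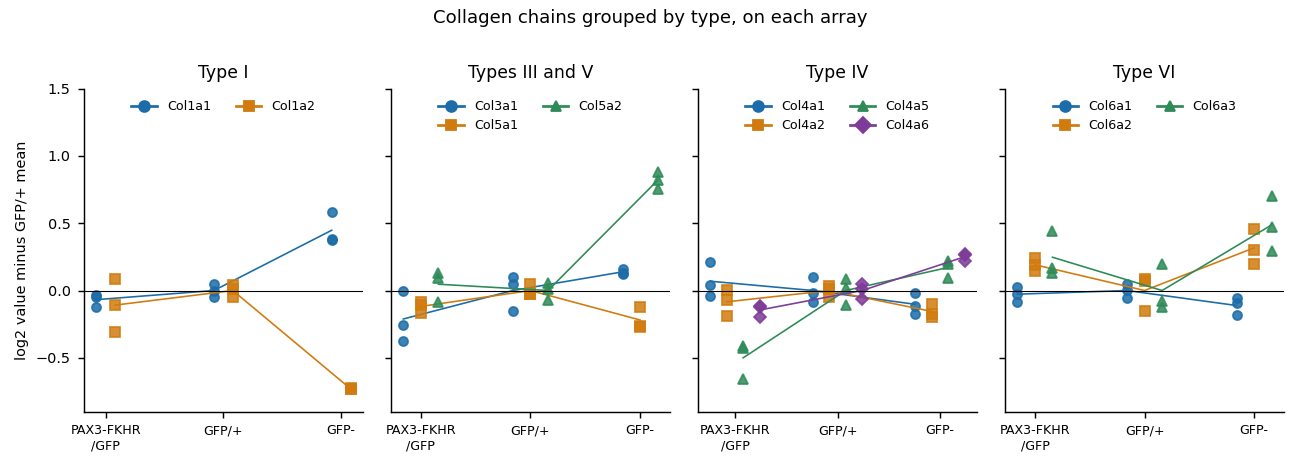
Log2 value of each sample minus the GFP/+ mean of the same gene, for chains of types I, III and V, IV and VI (panels), with points for the 9 samples and lines joining group means. In GFP- samples Col1a2 lies below 0 and Col1a1 above it, Col5a2 lies above Col5a1 and Col3a1, and Col4a1 and Col4a2 stay together.

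In the third comparison, PAX3-FKHR/GFP against GFP- cells, genotype and GFP fluorescence differed at once and cannot be told apart. It gave 3 higher collagen genes, beside 2.63% of all genes, and 6 lower ones, beside 5.2% of all genes. Col13a1, Col1a2 (0.62 ± 0.10) and Col26a1 (0.56 ± 0.08) were higher. Col14a1 (-1.39 ± 0.10), Col22a1, Col5a2 (-0.77 ± 0.08), Col4a5, Col18a1 (-0.61 ± 0.09) and Col1a1 were lower. Col1a2, Col26a1, Col14a1, Col5a2 and Col18a1, 5 of these 9, were called the same way in GFP/+ against GFP- cells and were not called between the GFP-positive groups, and the comparisons share their GFP- samples.

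Col22a1, Col4a5 and Col1a1 were called in this comparison alone. Col22a1, a FACIT collagen of tissue borders such as the myotendinous junction, stood at 5.17, 5.32 and 5.31 in PAX3-FKHR/GFP, 5.61, 5.65 and 5.65 in GFP/+ and 6.34, 5.97 and 6.01 in GFP- cells. Its 3 groups were stacked without overlap in the order opposite to that of Col13a1. The difference of PAX3-FKHR/GFP from GFP- was -0.84 ± 0.11 (1.79-fold lower, adjusted p = 0.000338), and the steps on either side of GFP/+ were -0.37 (adjusted p = 0.0689) and -0.47 (adjusted p = 0.0168). Both further probe sets of Col22a1 were not called, at -0.02 and -0.17, and the first of these lay below the median of all values in each group. Col4a5 was lower by 0.67 (-0.67 ± 0.09, adjusted p = 0.000345). Col1a1 was lower by 0.52 (-0.52 ± 0.08, adjusted p = 0.00161), and this difference was under the fold limit when replicate 2 of PAX3-FKHR/GFP (-0.49) or replicate 3 of GFP- (-0.45) was left out.

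Some genes were called through another probe set than the brightest. For Col25a1, a membrane-spanning collagen known from motor axon entry into muscle, the brightest probe set gave 0.05 between GFP/+ and GFP- cells. Its other probe set stood at 6.16, 5.83 and 5.93 in GFP/+, 5.93, 6.40 and 6.35 in PAX3-FKHR/GFP and 5.37, 5.10 and 5.01 in GFP- cells. On it both GFP-positive groups were above GFP-, by 0.81 (adjusted p = 0.0015) and 1.07 (adjusted p = 0.000313). One probe set of Col8a1, a chain of a network collagen of endothelial matrix, was called higher in GFP/+ than in GFP- cells (0.52, adjusted p = 0.0217), and one of Col11a1, a minor chain of cartilage fibrils, lower in cells with the fusion than in GFP- cells (-0.64). Where a called gene had further probe sets, at least 1 of them shared its call for 0 of 1 with the fusion, 5 of 6 between GFP/+ and GFP- and 4 of 8 between PAX3-FKHR/GFP and GFP-, and 0 were called the opposite way in any of the 3.

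**Figure D4:**
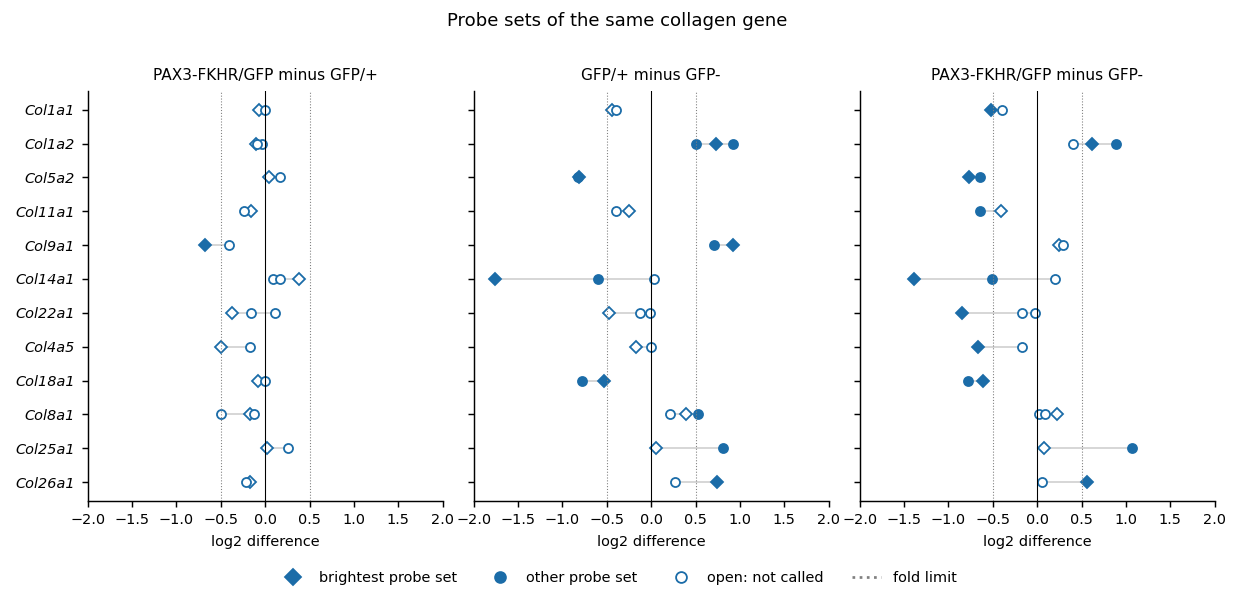
Log2 differences of all probe sets of the 12 collagen genes that have several and at least 1 called, in the 3 comparisons, with diamonds for the brightest probe set, circles for the others and filled symbols for those called. Probe sets of Col5a2 and Col1a1 lie close together, and those of Col14a1, Col22a1 and Col25a1 lie apart.

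Each of the 4 classes held collagen genes called in no comparison. In each class the 3 of them with the highest probe set signal are given first, an order that does not compare transcript levels between genes. Among the fibrillar genes Col3a1 gave -0.21, -0.14 and -0.35 with the fusion, between GFP/+ and GFP- and between PAX3-FKHR/GFP and GFP-, Col5a1 gave -0.12, 0.22 and 0.10, and Col27a1 gave -0.05, 0.13 and 0.08. In the basement membrane class Col4a1 gave 0.07, 0.10 and 0.17, Col4a2 -0.08, 0.16 and 0.07, and Col4a6 -0.15, -0.25 and -0.40, the last with an adjusted p of 0.00637 below the fold limit. The differences of Col16a1, Col12a1 and Col9a3 in the FACIT class lay between -0.10 and 0.13. Of the other class, Col23a1 gave -0.29, 0.31 and 0.02, Col6a2 0.19, -0.32 and -0.13, and Col6a1 -0.03, 0.11 and 0.08. For these genes the interval rather than the p shows what was resolved: with the fusion, the 95% interval was -0.14 to 0.28 for Col4a1, -0.26 to 0.10 for Col4a2 and -0.46 to 0.04 for Col3a1.

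The rest of the uncalled genes were 4 fibrillar (Col5a3, Col11a1, Col11a2 and Col24a1), 3 FACIT (Col9a2, Col19a1 and Col20a1), 3 basement membrane (Col4a3, Col4a4 and Col15a1) and 9 other genes (Col6a3, Col6a4, Col6a5, Col7a1, Col8a1, Col8a2, Col10a1, Col17a1 and Col25a1). With the fusion their differences ran from -0.26 to 0.26. Between GFP/+ and GFP- cells they ran from -0.49 to 0.44.

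The genes that modify, secrete, trim, cross-link, bind or degrade collagen, or regulate its transcription, were counted in the same fits from a list of 80, of which 73 were measured. With the fusion 2 were higher and 3 were lower, 2.74% and 4.11% of the 73, beside 1.31% and 0.715% over all genes. Since the list was drawn up with earlier results of these data known, its shares cannot be read as a test. The paper had itself reported changes of Timp3, Tgfb2, Foxc1 and Foxc2 from this screen. Timp3, a matrix-bound inhibitor of metalloproteinases, was at 9.02, 9.14 and 9.04 in PAX3-FKHR/GFP, 8.15, 8.23 and 8.38 in GFP/+ and 7.35 in each of the GFP- samples. Like Col13a1 it was stacked in 3 groups without overlap, and it rose with the fusion by 0.82 ± 0.09 (adjusted p = 0.000492). Tgfb2, a growth factor known to induce matrix genes, was at 7.73, 7.93 and 7.89 in PAX3-FKHR/GFP, 7.11, 7.11 and 7.03 in GFP/+ and 8.03, 8.01 and 8.11 in GFP- cells, with the GFP/+ samples lowest. Its difference with the fusion was 0.77 ± 0.08 (adjusted p = 0.000613).

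Fmod (fibromodulin), a proteoglycan that binds type I fibrils, was at 6.62, 6.62 and 6.59 in PAX3-FKHR/GFP, 7.25, 7.41 and 7.49 in GFP/+ and 4.99, 5.05 and 4.96 in GFP- cells. It was thus highest in GFP/+, as were Col9a1 and Col2a1, and its difference with the fusion was -0.77 ± 0.09 (adjusted p = 0.000685). On the brightest Fmod probe set whose name does not end in _s_at, _x_at or _a_at this was -0.26 (adjusted p = 0.487). Foxc1 and Foxc2, forkhead regulators of the paraxial mesoderm, gave -0.54 ± 0.10 and -0.56 ± 0.10 (adjusted p = 0.018 and 0.0179). Their adjusted p lay between 0.051 and 0.16 when a single GFP/+ sample, or replicate 2 of PAX3-FKHR/GFP, was left out. Without PAX3-FKHR/GFP replicate 1 it was 0.058 for Foxc1 and 0.0461 for Foxc2, the latter with a difference of -0.48, and without PAX3-FKHR/GFP replicate 3 Foxc1 gave 0.052. The genes of hydroxylation and folding (16), secretion (6), propeptide processing (6), cross-linking (4) and the collagen receptors (9) gave 0 calls with the fusion by limma or by the local pooled error test, and 6 of these 41 had an unadjusted p under 0.05.

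Between GFP/+ and GFP- cells 12 of the 73 were higher and 10 were lower, with a median difference of 0.01. These are 16.4% and 13.7%, beside 1.92% and 5.05% over all genes. The largest among the higher ones were Foxc2 (2.52), Fmod (2.39), Foxc1 (1.70), Plod1 (1.63), Tgfb3 (1.18), Ccn2 (0.94), Timp3 (0.90) and Sox5 (0.87). Plod1 is a lysyl hydroxylase of collagen chains, Tgfb3 and Ccn2 are secreted inducers of matrix genes, and Sox5 acts with Sox9 on Col2a1. Sox6, also among the listed regulators, was not called, at means of 7.41 in GFP/+ and 7.66 in GFP- cells. The largest among the lower ones were Dcn (-2.08), Ddr2 (-1.55), Sparc (-1.15), Adamts3 (-1.0021), Tgfb2 (-0.97), Ddr1 (-0.67), Itga1 (-0.66) and Mmp2 (-0.64). Dcn (decorin) and Sparc bind collagen in the matrix, Ddr1 and Ddr2 are receptor kinases for collagen, Itga1 is an integrin chain that binds it, Adamts3 trims procollagen and Mmp2 degrades denatured collagen. Of the receptors 3 of 9 were lower (33.3%), beside 5.05% of all genes. Of the regulators of transcription 6 of 11 were higher (54.5%) and 1 lower (9.09%), beside 1.92% and 5.05% of all genes. These lists were drawn up with earlier results of these data known, so the shares cannot be read as a test. Secretion and cross-linking genes, 6 and 4, gave 0 calls by limma and 1 by the local pooled error test, and 4 of them had an unadjusted p under 0.05. Between PAX3-FKHR/GFP and GFP- cells 9 of the 73 were higher and 9 lower, 12.3% in each direction, beside 2.63% and 5.2% over all genes.

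**Figure D5:**
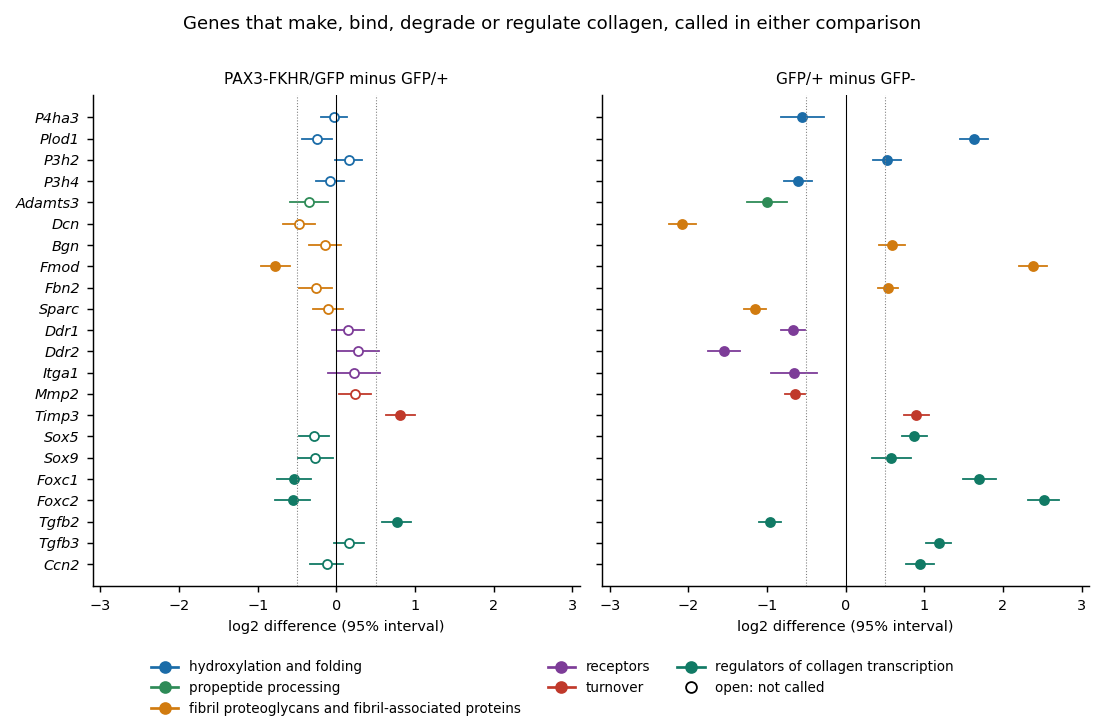
Log2 differences with 95% intervals of the 22 collagen handling genes called with the fusion (left) or between GFP/+ and GFP- cells (right), coloured by role, with open points where a gene was not called. With the fusion 5 points are filled, from -0.77 for Fmod to 0.82 for Timp3, whereas in the right panel all 22 are filled.

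The GFP- samples held markers of several other cell types at higher levels than the GFP-positive groups, which stand beside every difference from GFP- above. The linear values of 5 primitive erythroid markers summed to 36170 to 36420 in GFP-, against 1380 to 1450 in GFP/+ and 1926 to 2240 in PAX3-FKHR/GFP cells. Those of 7 surface ectoderm and epithelial markers summed to 3149 to 3340 against 373.9 to 396.8 and 387.3 to 444.2, and those of 9 markers of lateral and intermediate mesoderm to 2117 to 2177 against 477 to 506.6 and 589.5 to 738.7. The notochord is a tissue known for Col2a1 and Col9a1 transcripts. Of 3 notochord markers measured, Shh and Foxa2 were lower in GFP/+ than in GFP- cells by 4.06 and 3.90. Chrd was not called, at means of 5.09 in GFP/+ and 5.29 in GFP- cells. The 3 summed to 1921 to 2189 in GFP- and 146.7 to 166.9 in GFP/+ cells. The 8 endothelial markers summed to 934.3 to 987.7 in GFP-, 617.5 to 652.3 in GFP/+ and 585.2 to 619.2 in PAX3-FKHR/GFP cells, and 7 neural tube markers to 1409 to 1417, 851 to 902.6 and 845.5 to 986.2.

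Neural crest markers ran the other way. The 6 measured summed to 2672 to 3093 in PAX3-FKHR/GFP, 2142 to 2318 in GFP/+ and 687.2 to 727.2 in GFP- cells. Between the GFP-positive groups Tfap2b was the 1 of them called (0.59), and the other 5 were not called. The 10 dermomyotome markers summed to 4727 to 5854, 4423 to 4540 and 649.5 to 700 in that order. Both sums ran in the same order of groups as Col13a1. In PAX3-FKHR/GFP against GFP/+ cells Pax7, Met, Lbx1 and Tcf15 were called higher, Pax3 and Sim1 lower, and the other 4 dermomyotome markers were not called. The paper reported Pax7, Met and Lbx1 as raised in somites by the fusion, so this sum does not follow cell number alone. The part of any of these cell types in the collagen differences was not tested.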

How the data were processed

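The authors deposited log2 expression values of 9 Affymetrix mouse arrays made with RMA, which corrects background, quantile normalizes and summarizes probes. No version of it is stated, nor which arrays were processed as 1 set. RNA had been amplified from its 3′ end, which weights the last exons, and quantile normalization hides a shift of all transcripts. The absence filter of the study was not applied. After removal of 64 controls from 45101 probe sets, 34945 had 1 symbol in the platform annotation, 932 had several and 9160 had none here. Each pair of groups was fitted on its own 6 samples (limma 3.58.1, R 4.3.3, lmFit and eBayes with an intensity trend, two-sided). The code was checked on simulated data. The number of arrays limits the precision. Genes named are every collagen gene called, the brightest 3 uncalled per class, any with another probe set called, every handling gene called with the fusion and the 8 largest per direction between GFP/+ and GFP- cells. Sox6 is named beside Sox5. Members and lists were chosen with earlier results of these data known. Alternatives were centring, variance models, the local pooled error test of the study, fold limit, dim filter, other probe set choices, a replicate block and leaving out each sample. Promoters came from RefSeq (GRCm38.p6) by gene identifier, with no entry for Col1a1, Col2a1, Col4a3, Col5a2, Col9a3, Col12a1, Col14a1, Col22a1 and Col26a1. Figures were drawn with matplotlib.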

Additional observations from a re-analysis of the deposited data

How the results depend on the processing

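Among collagen genes with an adjusted p under 0.05, no difference changed its sign under any alternative run. With the fusion the number of lower collagen genes (1) was 3 with no fold limit and ranged from 0 to 2 when 1 sample was left out: 0 when replicate 2 of either GFP-positive group was left out, and 2 without PAX3-FKHR/GFP replicate 3. Without GFP/+ replicate 1 Col2a1 (-0.55) was called and Col9a1 was not. Between GFP/+ and GFP- cells, 5 and 3 became 8 and 6 with no fold limit, and the lower count ranged from 3 to 5 with 1 sample left out, 5 without GFP- replicate 3. With probe sets whose names do not end in _s_at, _x_at or _a_at, 3 were higher, since Col2a1 has no such probe set and Col26a1 gave 0.27. The called probe sets of both genes end in _a_at, and the other one of Col26a1 lay below the median of all values. Between PAX3-FKHR/GFP and GFP- cells, 5 were higher with no fold limit, and Col22a1 and Col26a1 gave -0.17 and 0.05 on probe sets without these endings. Col1a1 gave -0.43 by the local pooled error test and -0.46 as the mean of its probe sets. By that mean Col4a5 (-0.42), Col22a1 (-0.34) and Col26a1 (0.31) were not called and Col11a1 (-0.53) was. For handling genes, an alternative chosen after seeing the data, the lower count with the fusion (3) was 1 by the mean of probe sets and 1 to 2 with 1 sample left out, and that between PAX3-FKHR/GFP and GFP- cells (9) was 15 with no fold limit. Of all 18193 genes 368 were called with the fusion, 228 when replicate 2 of PAX3-FKHR/GFP and 239 when that of GFP/+ was left out, and no fold limit took 1267 to 2282 in the second comparison and 1424 to 2259 in the third. Same-numbered samples deviated together at correlations between -0.0957 and 0.1047, and differently numbered ones at -0.1147 to 0.1211. With 3 samples per group these values cannot decide whether the numbers pair samples. With the replicate block the collagen counts were 1 higher and 1 lower, 5 and 3, and 3 and 6. Precision is limited by the 3 arrays per group, and 12 of the collagen genes lay near the array background.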
